A study of Homo sapiens with 12 samples.

Results

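The 10 genes described here encode receptor chains of the IL-6 cytokine family (IL6ST, IL6R, LIFR and OSMR) and proteins of the feedback that follows receptor signalling (SOCS1, SOCS2, SOCS3, CISH, PIAS1 and PIM1). They were chosen by name for their place in this pathway, and they are 10 of the 19516 genes with a symbol in the count table. RNA was sequenced from MDA-MB-231 and HCC1937, human breast cancer lines of the triple-negative class, after 72 h with or without an aqueous extract of the succulent Kalanchoe pinnata. The 4 groups of 3 libraries were MDA-MB-231 cells with 140 µg/mL of extract (E7, E8 and E9), MDA-MB-231 controls (E1, E2 and E3), HCC1937 cells with 66 µg/mL of extract (E31, E32 and E33) and HCC1937 controls (E25, E26 and E27). Both lines carry no engineered allele per the labels, which give the genotype as WT. The culture medium was DMEM for MDA-MB-231 and RPMI for HCC1937, each with serum, so line, medium and extract concentration cannot be told apart in any comparison of the lines. Each line is a single cultured population. The labels do not say that replicates came from separate cultures, so each p-value measures only how far these libraries spread, and that spread may be technical. In the main fit the spread was estimated over the libraries of both lines at once. The p-values of HCC1937 thus also carry the spread of the MDA-MB-231 libraries, E7 among them.

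Cytokines of the IL-6 family act through receptor complexes that share the chain IL6ST, also called gp130. IL-6 binds IL6R, leukaemia inhibitory factor (LIF) binds LIFR and oncostatin M binds OSMR or LIFR. Each receptor complex includes IL6ST and activates JAK kinases, which phosphorylate STAT factors, STAT3 above all. STAT factors switch on SOCS and CISH genes, whose products bind JAK kinases or receptors and end the signal, while PIAS proteins restrain STAT factors in the nucleus and PIM1 is a survival kinase encoded by a STAT target gene. In breast cancer cells this pathway is known for its part in invasion and survival.

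Libraries held 16170342 to 31337259 counts, and genes with reads numbered 14036 to 15154 per library. A single library resolves down to about 3 counts, which is 0.0990 to 0.213 CPM (read counts scaled to library size). Library E7 stood apart: its Spearman correlation over genes with E8 and E9 was 0.966 and 0.967, against 0.997 to 0.998 for the other replicate pairs. Mitochondrial genes took 10.7%, 4.63% and 4.78% of counts in E7, E8 and E9, against 2.76% to 2.87% in MDA-MB-231 controls, and 3.78% to 3.98% with extract against 3.54% to 3.69% without in HCC1937. The part of this share in the results was not tested. The basal keratin gene KRT5 and the E-cadherin gene CDH1 had no reads in MDA-MB-231, and averaged 58.8 and 186 CPM in HCC1937 controls, as described for these lines. The summed CPM of 5 leukocyte markers was 426 to 527 with extract and 303 to 318 without in MDA-MB-231, and 181 to 184 with extract and 64.5 to 67.1 without in HCC1937. Nearly all of it was CD68. The part of these markers in the results was not tested.

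IL6ST was far lower with extract in both lines. The gene (Entrez 3572) lies on chromosome 5 from 55935095 to 55994993 of GRCh38. In MDA-MB-231 it measured 13.6, 19.6 and 22.0 CPM with extract, against 135, 147 and 153 CPM in controls. In HCC1937 the values were 11.7, 11.0 and 11.8 CPM with extract and 66.2, 77.2 and 79.5 CPM in controls. Every extract library lay below every control library of its line. The log2 fold change was -2.97 ± 0.16 in MDA-MB-231 (SE; edgeR quasi-likelihood test, adjusted p = 1.851e-08), which is 7.84-fold lower, and -2.69 ± 0.15 in HCC1937 (adjusted p = 2.776e-08), which is 6.46-fold lower. Adjusted p-values are Benjamini-Hochberg over the 14133 genes tested, and rose or fell is used only where this value is under 0.05. The difference between both effects, HCC1937 minus MDA-MB-231, was 0.28 ± 0.21 and was not called (adjusted p = 0.338). Since these are bulk samples scaled to the other genes of a library, fewer cells holding this RNA and less of it per cell cannot be told apart.

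Long transcripts poor in G and C moved as a class with the extract, and IL6ST belongs to that class. Its longest coding transcript has 9057 bases and 36.6% GC. Over the 507 tested genes with transcripts above 8000 bases and at most 42% GC, the median log2 fold change in MDA-MB-231 was -1.74 and that in HCC1937 was -1.97. Over the 1037 genes with at most 2000 bases and above 58% GC the medians were 0.79 (MDA-MB-231) and 0.89 (HCC1937). With an offset that removes the relation to length and GC within each library, IL6ST was still called lower, at -0.89 in MDA-MB-231 and -0.48 in HCC1937. The size of its fall depends on this correction.

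**Figure D1:**
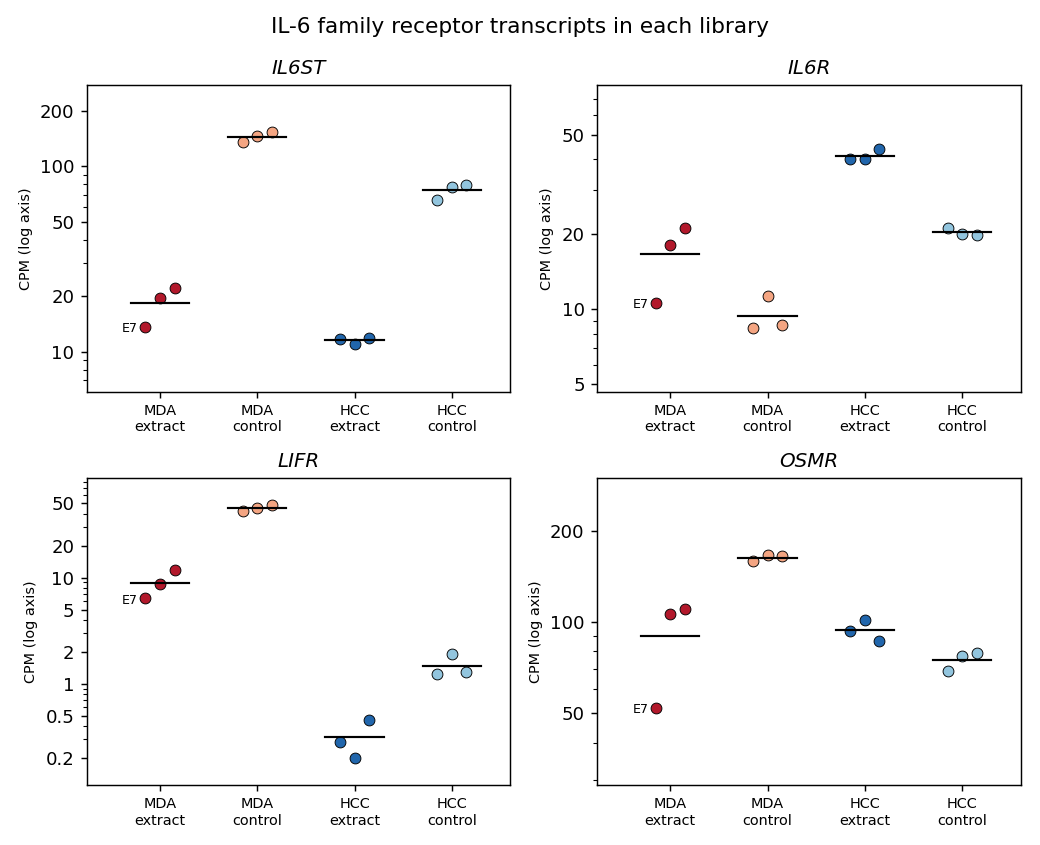
CPM (log axis) of the receptor genes IL6ST, IL6R, LIFR and OSMR in each of the 12 libraries, extract groups left of their controls; points are libraries and bars are group means. IL6ST and LIFR sat below their controls in every extract library of both lines, IL6R sat above its controls in every HCC1937 extract library, and OSMR sat below its controls in MDA-MB-231 and above them in HCC1937.

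LIFR, the receptor chain for LIF and a partner of IL6ST, was also lower with extract in both lines, but its level differed between them. The gene (Entrez 3977) lies on chromosome 5 from 38474963 to 38608354. MDA-MB-231 libraries measured 6.40, 8.63 and 11.8 CPM with extract and 42.4, 45.7 and 48.0 CPM without. HCC1937 libraries measured 0.283, 0.201 and 0.453 CPM with extract and 1.23, 1.91 and 1.30 CPM without, on 24 reads over the extract libraries and 127 over the controls. The extract and control libraries of each line did not overlap. LIFR fell by 2.33 ± 0.21 on the log2 scale in MDA-MB-231 (adjusted p = 1.345e-06) and by 2.22 ± 0.37 in HCC1937 (adjusted p = 0.0001885). Its longest transcript, 10089 bases at 36.2% GC, exceeds that of each of the other 9 genes. Both calls were lost with the length and GC offset, at -0.14 in MDA-MB-231 and 0.05 in HCC1937, and over all 18 alternatives the adjusted p reached 0.847 in MDA-MB-231 and 0.913 in HCC1937.

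IL6R, the chain that binds IL-6 itself, was higher with extract in both lines. The gene (Entrez 3570) lies on chromosome 1 from 154405193 to 154469450, with a longest transcript of 5914 bases at 51.8% GC. MDA-MB-231 measured 10.6, 18.2 and 21.2 CPM with extract and 8.43, 11.3 and 8.62 CPM without. HCC1937 measured 39.95, 39.98 and 44.1 CPM with extract and 21.2, 20.1 and 19.9 CPM without. In HCC1937 the groups did not overlap, while in MDA-MB-231 the extract library E7 lay below the highest control. IL6R rose by 0.83 ± 0.21 in MDA-MB-231 (adjusted p = 0.003876) and by 1.02 ± 0.20 in HCC1937 (adjusted p = 0.000573). Both calls held under all 18 alternatives, with values from 0.63 to 1.07 in MDA-MB-231 and from 0.89 to 1.11 in HCC1937.

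OSMR, the oncostatin M receptor chain, separated the lines. The gene (Entrez 9180) lies on chromosome 5 from 38845858 to 38945596. It measured 52.2, 106 and 111 CPM with extract and 159, 166 and 165 CPM without in MDA-MB-231. In HCC1937 it measured 93.7, 101 and 86.6 CPM with extract and 69.0, 77.3 and 78.8 CPM without. The groups did not overlap in either line, with extract libraries lower in MDA-MB-231 and higher in HCC1937. OSMR fell by 0.86 ± 0.21 in MDA-MB-231 (adjusted p = 0.00385), by 0.59 without E7, the library with the lowest value, and by 0.49 with the length and GC offset. In HCC1937 the fold change of 0.32 ± 0.21 was not called (95% interval -0.14 to 0.79, adjusted p = 0.193). It was called higher at 0.34 when E7 was left out, at 0.38 when only the HCC1937 libraries were fitted, and at 0.97 with the length and GC offset. The difference of the effects, 1.19 ± 0.30, was called (adjusted p = 0.0111) and held under all 17 of its alternatives, from 0.93 to 1.46.

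SOCS1 and SOCS3 are the SOCS proteins that bind JAK kinases and block their activity, and SOCS3 also docks on IL6ST. Their RNA rose with extract in HCC1937, while the changes in MDA-MB-231 were not called. SOCS3 (Entrez 9021; chromosome 17, 78356778 to 78360077) measured 59.9, 59.2 and 56.6 CPM in HCC1937 with extract and 14.5, 14.2 and 15.1 CPM in its controls. In MDA-MB-231 it measured 59.8, 99.0 and 104 CPM with extract and 92.1, 87.1 and 88.1 CPM without. The HCC1937 groups lay far apart, and the extract libraries of MDA-MB-231 lay on both sides of their controls, with E7 lowest. SOCS3 rose 4.01-fold in HCC1937 (log2 2.00 ± 0.17, adjusted p = 6.375e-07), and in MDA-MB-231 the log2 fold change was -0.02 ± 0.16 (95% interval -0.37 to 0.33, adjusted p = 0.933). The MDA-MB-231 value depended on the setting: it was 0.20 and called higher without E7, and -0.56 and called lower with the length and GC offset. The HCC1937 rise was 1.30 with that offset and was called under all 18 alternatives. The difference between the lines was 2.02 ± 0.23 (adjusted p = 7.195e-05), from 1.67 to 2.16 over 17 alternatives.

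SOCS1 (Entrez 8651; chromosome 16, 11254405 to 11256200) had few reads in HCC1937. It measured 1.54, 1.33 and 1.77 CPM there with extract and 0.231, 0.264 and 0.141 CPM without, from 118 and 18 reads. In MDA-MB-231 it measured 3.91, 3.72 and 3.04 CPM with extract and 3.50, 3.75 and 2.92 CPM without, so that these groups overlapped. In HCC1937 all 3 extract libraries stood above all controls. The rise in HCC1937 was 7.14-fold (log2 2.84 ± 0.28, adjusted p = 2.538e-06), and it was 2.11 with the length and GC offset. In MDA-MB-231 the change was 0.07 ± 0.20 (95% interval -0.37 to 0.51, adjusted p = 0.794), turning to -0.65 and called lower with the offset. Of 18 alternatives only that 1 called it, and with the offset and without E7 it was -0.53 and not called (adjusted p = 0.0618). SOCS1 has the shortest and most GC-rich longest transcript of the 10 genes, 1784 bases at 69.1% GC. Its difference between the lines, 2.77 ± 0.35 (adjusted p = 0.000143), was the largest of the 10 genes and ran from 2.55 to 2.97 over 17 alternatives.

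SOCS2, known as a brake on growth hormone receptor signalling, was measured well in MDA-MB-231 only. The gene (Entrez 8835) lies on chromosome 12 from 93569814 to 93583487. It measured 15.4, 16.4 and 13.5 CPM in MDA-MB-231 with extract and 6.61, 7.38 and 7.11 CPM without, with no overlap. It rose by 1.10 ± 0.24 (adjusted p = 0.00179), with 0.96 to 1.18 over 18 alternatives that all called it. In HCC1937 the libraries held 0.364, 0.362 and 0.0754 CPM with extract and 0.461, 0.231 and 0.105 CPM without, from 20 and 22 reads. No difference was detectable there at this depth (0.02 ± 0.54, 95% interval -1.17 to 1.21, adjusted p = 0.993), and the difference between the lines was not called. GENCODE lists the pseudogenes SOCS2P1 and SOCS2P2, as it lists IL6STP1 and IL6RP1, and how reads shared with these copies were assigned is not given in the sources used here.

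CISH, the first described gene of the SOCS family and a target of STAT5, was low in both lines. The gene (Entrez 1154) lies on chromosome 3 from 50606490 to 50611831 on the minus strand. Its promoter is shown because CISH is a known STAT target and its window holds more matches to the STAT motif than that of any other of the 10 genes. The sequence is from the RefSeq promoter (GRCh38.p14), 5′ to 3′, from 250 to 91 bases upstream of RefSeq's gene start, which need not be that of GENCODE, at chr3:50611865-50612024 on the minus strand. Capitals mark matches to TTCNNNGAA, the core that STAT dimers are known to bind.
CISH: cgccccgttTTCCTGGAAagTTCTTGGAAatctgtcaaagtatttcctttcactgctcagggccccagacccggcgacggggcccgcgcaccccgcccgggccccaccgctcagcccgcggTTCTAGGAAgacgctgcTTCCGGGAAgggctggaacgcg
The CISH stretch holds 4 matches, which begin 241, 230, 129 and 112 bases upstream. The motif is its own reverse complement, so a search of one strand covers both, and no matches of it overlapped in CISH. Of 35116 promoters in the table, 2306 (6.57%) held at least 1 match in the 250 bases before the start, and 5 (0.0142%) held at least 4. Promoters were found for 9 of the 10 genes, in 13 windows. Of these windows 3 held a match, and CISH and LIFR were the 2 genes with a match. CISH was picked for its matches, so its count is no test against the share of all promoters. These matches describe letters and not bound sites.

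CISH measured 0.607, 0.924 and 0.490 CPM in HCC1937 with extract and 0.269, 0.231 and 0.492 CPM in controls, from 51 and 28 reads. In MDA-MB-231 it measured 2.06, 2.53 and 2.19 CPM with extract and 3.45, 3.31 and 2.31 CPM without. The highest HCC1937 control lay just above the lowest extract library, and the MDA-MB-231 groups overlapped as well. CISH rose by 1.01 ± 0.37 in HCC1937 (adjusted p = 0.02924), while in MDA-MB-231 the value was -0.41 ± 0.28 (95% interval -1.02 to 0.21, adjusted p = 0.220). The HCC1937 call was lost in 5 of 18 alternatives: with the offset, also without E7, and without E25, E26 or E32. Over all 18 the log2 fold change ran from 0.20 to 1.41 and the adjusted p from 0.0102 to 0.672. With the offset the MDA-MB-231 value was -1.07 and called lower. The difference between the lines, 1.42 ± 0.47 (adjusted p = 0.0371), was lost in 9 of 17 alternatives, over which the adjusted p ran from 0.0106 to 0.101. CISH shares no exonic bases with the overlapping gene MAPKAPK3.

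**Figure D2:**
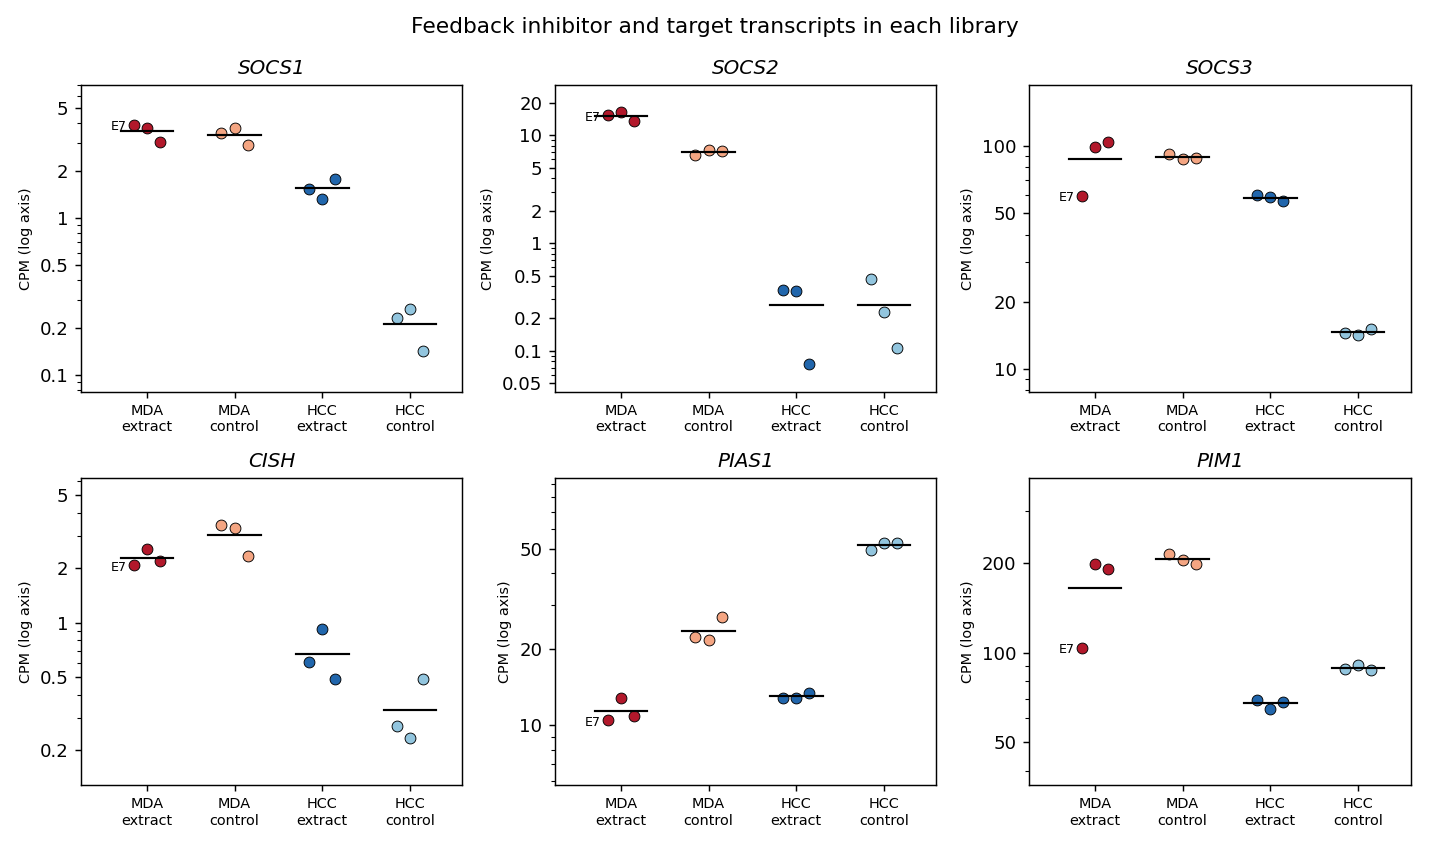
CPM (log axis) of SOCS1, SOCS2, SOCS3, CISH, PIAS1 and PIM1 in each library, extract groups left of their controls; points are libraries and bars are group means. SOCS1 and SOCS3 stood above their controls in all 3 HCC1937 extract libraries and overlapped their controls in MDA-MB-231, and PIAS1 lay below its controls in both lines.

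PIAS1, a SUMO ligase that restrains STAT factors, was lower with extract in both lines. The gene (Entrez 8554) lies on chromosome 15 from 68054179 to 68198603. HCC1937 libraries measured 12.9, 12.8 and 13.5 CPM with extract and 49.7, 52.9 and 52.9 CPM without. MDA-MB-231 libraries measured 10.5, 12.8 and 10.9 CPM with extract and 22.3, 21.7 and 26.8 CPM without. No extract library reached a control of its line, and the extract groups of both lines came close to the same level. PIAS1 fell by 1.99 ± 0.11 in HCC1937 (adjusted p = 1.658e-08) and by 1.05 ± 0.11 in MDA-MB-231 (adjusted p = 4.739e-06). Its longest transcript has 8115 bases at 40.9% GC. With the length and GC offset the HCC1937 value was -0.39 and still called lower, and the MDA-MB-231 value turned to 0.34 and was called higher, so its direction in MDA-MB-231 depends on this correction. The difference between the lines was -0.94 ± 0.15 (adjusted p = 0.00068), with -1.04 to -0.67 over 17 alternatives. PIAS1 shares 3141 of its 8886 exonic bases with CALML4, whose mean was 2.20 CPM or less in each group and which was not called in either line.

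PIM1, the survival kinase, had the highest CPM per kilobase of longest transcript among the 10 genes in all 4 groups. The gene (Entrez 5292) lies on chromosome 6 from 37170203 to 37175426. MDA-MB-231 measured 104, 199 and 191 CPM with extract and 215, 204 and 199 CPM without, and HCC1937 measured 69.4, 64.6 and 68.3 CPM with extract and 88.1, 90.9 and 87.6 CPM without. The extract libraries of each line lay below its controls, by little in E8. PIM1 was not called in MDA-MB-231 (-0.32 ± 0.18, 95% interval -0.73 to 0.08, adjusted p = 0.144) or in HCC1937 (-0.40 ± 0.19, 95% interval -0.80 to 0.01, adjusted p = 0.0729). In HCC1937 it was called lower at -0.38 without E7 and at -0.34 when only the HCC1937 libraries were fitted, and in MDA-MB-231 at -0.48 without E8. With the length and GC offset it was called lower in both lines, at -0.86 in MDA-MB-231 and -1.07 in HCC1937.

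Counted together in MDA-MB-231, 2 of the 10 genes rose (IL6R and SOCS2), 4 fell (IL6ST, LIFR, OSMR and PIAS1) and 4 were not called. Over all tested genes 65.8% were called, 33% higher and 32.8% lower. Extract and control libraries did not overlap for 6 of the 10 genes in MDA-MB-231, against 67.6% of all genes, and for 8 in HCC1937, against 82.1%. In HCC1937, 4 rose (IL6R, SOCS1, SOCS3 and CISH), 3 fell (IL6ST, LIFR and PIAS1) and 3 were not called, against 71.8% of all genes called, 32.7% higher and 39.1% lower. These shares are near the background, so the count of called genes is not a result about this set. The median log2 fold change of the 10 genes was -0.36 in MDA-MB-231, where that of all genes was 0, and 0.17 in HCC1937, where that of all genes was -0.16. With the length and GC offset, 3 were called higher and 6 lower in MDA-MB-231 (65.2% of all genes called, 33.8% higher and 31.5% lower). In HCC1937 it was 4 higher and 3 lower (67.6% of all genes called, 33.1% higher and 34.5% lower). Without E7, 3 were called higher and 4 lower in MDA-MB-231 (74.6% of all genes called, 37.3% higher and 37.2% lower). In HCC1937 the counts without E7 were 5 higher and 4 lower (81.4% of all genes called, 38.1% higher and 43.3% lower).

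The effect of the extract differed between the lines for 5 of the 10 genes, against 32.1% of all genes tested. OSMR, SOCS1, SOCS3 and CISH had the more positive effect in HCC1937, where 11.5% of all genes did, and PIAS1 had the more negative effect there, where 20.6% of all genes did. IL6ST, IL6R, LIFR, SOCS2 and PIM1 were not called for a difference. Leaving out E7 added PIM1, at -0.30, while 58% of all genes were then called. IL6ST was called for a difference of 0.41 with the offset.

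**Figure D3:**
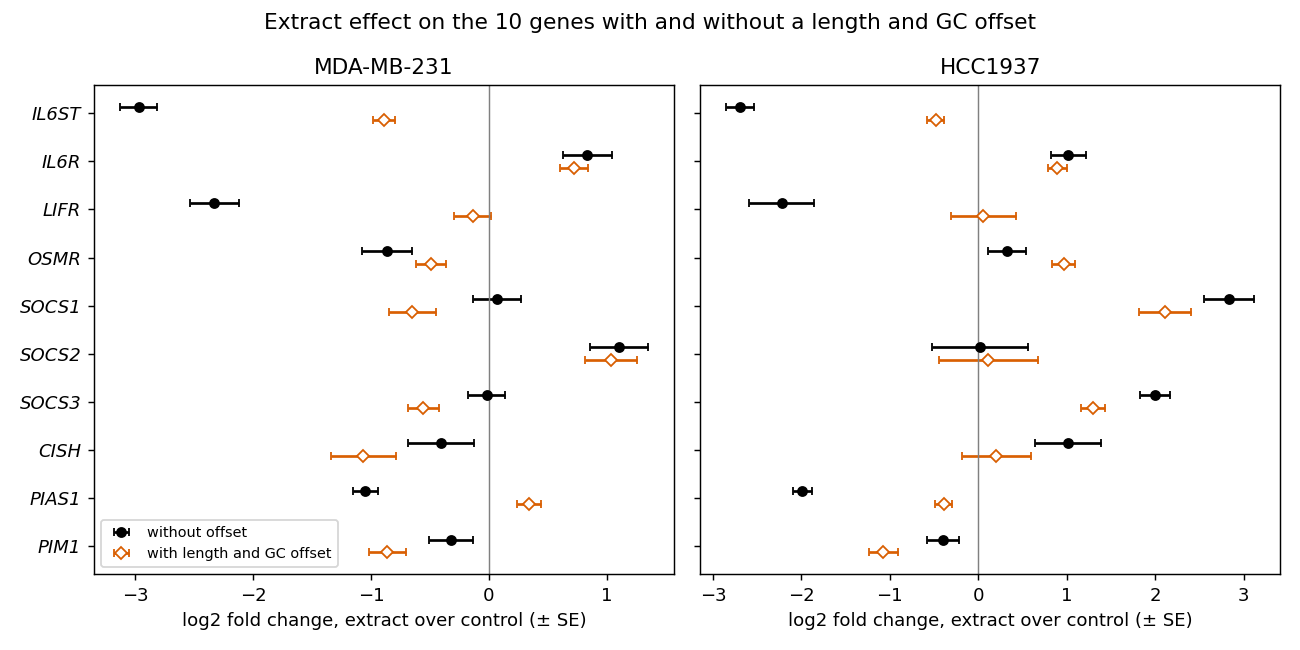
Log2 fold change, extract over control, of the 10 genes in MDA-MB-231 and HCC1937, with and without the length and GC offset; points are estimates and bars are 1 SE to each side. IL6ST, LIFR and PIAS1 lie nearer to 0 with the offset, while SOCS1 and SOCS3 stayed above 0 in HCC1937.

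The lines also differed in how much of these RNAs they held without extract. HCC1937 controls were lower than MDA-MB-231 controls for 8 of the 10 genes and higher for 2, against 75.3% of all tested genes called, 36.7% lower and 38.7% higher. The log2 difference was -4.92 for LIFR, -4.73 for SOCS2, -3.96 for SOCS1, -3.17 for CISH and -2.61 for SOCS3. IL6ST, OSMR and PIM1 were also lower, with log2 differences of -0.96 to -1.21. IL6R (1.11) and PIAS1 (1.13) were higher in HCC1937. All 10 calls held under all 18 alternatives.

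With extract, HCC1937 was lower than MDA-MB-231 for 7 of the 10 genes and higher for IL6R, at 1.30, against 73.8% of all tested genes called, 39.7% lower and 34.1% higher. OSMR averaged 93.9 ± 7.41 CPM in HCC1937 and 89.7 ± 32.5 CPM in MDA-MB-231 (SD, n = 3 each), and PIAS1 averaged 13.1 ± 0.360 CPM in HCC1937 and 11.4 ± 1.26 CPM in MDA-MB-231. Neither was called (0.06 for OSMR, 0.19 for PIAS1). OSMR without E7 was -0.23 and called lower in HCC1937, and PIAS1 was called higher there with the offset at 0.42 and without E8 at 0.27. For SOCS3 the value was -0.58, and this call was lost when only these groups were fitted (over 18 alternatives the adjusted p reached 0.0614).

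Levels of different genes were compared as CPM per kilobase of the longest coding transcript. On that scale PIM1 led in every group, with 62.0 ± 19.8 in MDA-MB-231 with extract, 77.7 ± 3.06 in its controls, 25.4 ± 0.961 in HCC1937 with extract and 33.5 ± 0.659 in its controls (SD, n = 3 each). SOCS3 came next in MDA-MB-231, with 32.1 ± 8.88 with extract and 32.6 ± 0.984 in controls. SOCS3 was also next in the HCC1937 extract group, at 21.4 ± 0.648, while in HCC1937 controls it was the fifth at 5.34 ± 0.169, behind PIM1, OSMR, IL6ST and PIAS1. IL6ST had 2.03 ± 0.476 with extract and 16.00 ± 0.983 in controls of MDA-MB-231, and 1.27 ± 0.0508 with extract and 8.20 ± 0.782 in controls of HCC1937. With the median transcript length in place of the longest, OSMR led in both HCC1937 groups and in controls of MDA-MB-231, so the order at the top depends on the length taken. By longest transcript, SOCS1 (0.119 ± 0.0357), CISH (0.153 ± 0.0652) and LIFR (0.147 ± 0.0373) did not differ beyond their spread in HCC1937 controls. SOCS2 was the lowest of the 10 genes there on that scale, at 0.0712 ± 0.0483. By median transcript length LIFR was 0.591, CISH 0.157 and SOCS1 0.141, so this likeness also depends on the length taken.

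Genes of 3 IL-6 family ligands, IL6, IL11 and CLCF1, rose with extract in both lines, and that of LIF fell in MDA-MB-231. Of 10 ligand genes 8 were tested; 4 rose and 1 fell in MDA-MB-231 with a median log2 fold change of 0.56, and 4 rose and 0 fell in HCC1937 with a median of 0.61, beside all-gene medians of 0 and -0.16. Over all tested genes 33% rose and 32.8% fell in MDA-MB-231, and 32.7% rose and 39.1% fell in HCC1937. LIF averaged 134.9 ± 39.2 CPM with extract and 231.9 ± 4.02 CPM without in MDA-MB-231 (SD, n = 3 each). It fell by 0.78 ± 0.18 there (adjusted p = 0.00242), and was -1.12 with the offset. In HCC1937 LIF was 0.36 ± 0.18 and not called (adjusted p = 0.0975). It was 0.38 and called higher there without E7, and -0.13 and not called with the offset. The LIF difference between the lines, 1.14 ± 0.26, was called (adjusted p = 0.0057). IL6 averaged 13.4 CPM with extract and 3.54 CPM without in MDA-MB-231 (1.92 ± 0.16, adjusted p = 6.989e-07) and 15.6 CPM with extract and 8.06 CPM without in HCC1937 (0.95 ± 0.14, adjusted p = 8.131e-05). IL11, a ligand that also signals through IL6ST, averaged 100.2 CPM with extract and 64.4 CPM without in MDA-MB-231 and 48.7 CPM with extract and 14.3 CPM without in HCC1937. It rose by 0.64 ± 0.09 in MDA-MB-231 (adjusted p = 6.254e-05) and by 1.76 ± 0.09 in HCC1937 (adjusted p = 1.502e-08). CLCF1, a ligand of the ciliary neurotrophic factor receptor, rose by 1.13 ± 0.11 in MDA-MB-231 (adjusted p = 2.63e-06) and 0.85 ± 0.10 in HCC1937 (adjusted p = 1.184e-05). Under the offset 2 were called higher and 2 lower in MDA-MB-231, and 2 higher and 1 lower in HCC1937. IL6 was among those still called higher, at 1.63 in MDA-MB-231 and 0.94 in HCC1937, while IL11 was 1.04 in HCC1937 and lost its call in MDA-MB-231, and CLCF1 lost its call in HCC1937. OSM and IL27 had reads in HCC1937 controls only, at 0.0234 and 0.0128 CPM on average, under the level of 3 counts in a library.

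Of 5 other receptors and receptor sheddases 4 were tested, with 1 higher and 1 lower in MDA-MB-231, where 65.8% of all genes were called, and 1 higher and 2 lower in HCC1937, where 71.8% were. In MDA-MB-231 without E7 there were 2 lower. With the length and GC offset 0 were called higher and 1 lower in MDA-MB-231 (65.2% of all genes called). In HCC1937 the offset gave 1 higher and 1 lower (67.6% of all genes called). ADAM10, a protease that cuts IL6R from the cell surface, fell by 1.88 ± 0.11 in MDA-MB-231 (adjusted p = 4.016e-08) and by 2.46 ± 0.11 in HCC1937 (adjusted p = 4.83e-09), and with the offset it was 0.09 and no longer called in MDA-MB-231 and -0.37 in HCC1937. ADAM17, the other sheddase, was -0.93 ± 0.39 and not called in MDA-MB-231 (adjusted p = 0.0539) and fell by 1.00 ± 0.39 in HCC1937 (adjusted p = 0.0363), a call lost with the offset. IL27RA, the IL-27 receptor chain, rose by 0.43 ± 0.09 in MDA-MB-231 (adjusted p = 0.00153) and by 1.01 ± 0.09 in HCC1937 (adjusted p = 1.107e-06). With the offset its MDA-MB-231 call was lost and its HCC1937 value was 0.35. CNTFR had no reads outside HCC1937 controls, where it averaged 0.0234 CPM.

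The other 9 SOCS, PIAS and PIM genes were all tested, with 1 higher and 4 lower in MDA-MB-231 (33% and 32.8% of all genes) and 3 higher and 4 lower in HCC1937 (32.7% and 39.1% of all genes). In MDA-MB-231 without E7 there were 4 higher and 4 lower. SOCS4 fell by 1.97 ± 0.11 in MDA-MB-231 and 2.64 ± 0.11 in HCC1937, SOCS5 by 1.87 ± 0.12 in MDA-MB-231 and 1.43 ± 0.12 in HCC1937, and SOCS6 by 1.84 ± 0.12 in MDA-MB-231 and 2.08 ± 0.12 in HCC1937. The SOCS genes thus did not move together in HCC1937, where SOCS1 and SOCS3 rose. Under the offset the calls of SOCS4 in MDA-MB-231 and SOCS6 in HCC1937 were lost, SOCS5 was called higher in HCC1937 at 0.33, and the counts were 2 higher and 5 lower in MDA-MB-231 and 4 higher and 1 lower in HCC1937.

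Among the kinases and factors that read these receptors JAK2 was lower in both lines, while STAT3 lay above its controls on average. Of 11 JAK and STAT genes 2 rose and 6 fell in MDA-MB-231 (median -0.76; 33% and 32.8% of all genes), and 1 rose and 6 fell in HCC1937 (median -1.17; 32.7% and 39.1% of all genes). Without E7 the counts were 5 higher and 6 lower in MDA-MB-231, where 74.6% of all genes were then called (37.3% higher, 37.2% lower), and 4 higher and 7 lower in HCC1937, where 81.4% were (38.1% higher, 43.3% lower). STAT3, the main factor downstream of IL6ST, averaged 230.1 ± 85.6 CPM with extract and 189.8 ± 3.34 CPM without in MDA-MB-231, and 364.2 ± 1.54 CPM with extract and 258.3 ± 4.54 CPM without in HCC1937 (SD, n = 3 each). It was not called in MDA-MB-231 (0.28 ± 0.21, adjusted p = 0.271) or HCC1937 (0.50 ± 0.21, adjusted p = 0.0555), and was called higher without E7 in both lines, at 0.56 and 0.52, and with the offset in HCC1937, at 0.40. JAK2, which binds IL6ST, fell by 2.52 ± 0.28 in MDA-MB-231 (adjusted p = 9.969e-06) and by 2.87 ± 0.31 in HCC1937 (adjusted p = 5.39e-06), and it stayed lower with the offset, at -1.26 in each line. STAT4 fell by 2.84 ± 0.25 in HCC1937 and by 2.09 ± 0.36 in MDA-MB-231, there from 12 reads with extract and 50 without. STAT6 rose by 1.49 ± 0.09 in MDA-MB-231. In HCC1937 STAT6 was 0.21 ± 0.09 and not called, 0.23 and called higher without E7, and -0.26 and called lower with the offset. With the offset 2 were called higher and 7 lower in MDA-MB-231, and 3 higher and 8 lower in HCC1937.

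Among 10 further brakes and adaptors of cytokine receptors, 1 rose and 5 fell in MDA-MB-231 and 4 rose and 6 fell in HCC1937, where 65.8% (MDA-MB-231) and 71.8% (HCC1937) of all genes were called. In MDA-MB-231 without E7 there were 2 higher and 6 lower. With the length and GC offset 2 were called higher and 2 lower in MDA-MB-231 (65.2% of all genes called). In HCC1937 the offset gave 3 higher and 2 lower (67.6% of all genes called). GRB2, an adaptor to the RAS pathway, rose by 0.96 ± 0.11 in MDA-MB-231 and by 0.85 ± 0.10 in HCC1937. GAB1 fell by 1.71 ± 0.23 in MDA-MB-231 and 1.62 ± 0.18 in HCC1937. STAM2 fell by 0.99 ± 0.12 in MDA-MB-231 and 1.78 ± 0.13 in HCC1937. The phosphatase gene PTPN2 fell by 1.83 ± 0.16 in HCC1937 and by 0.66 ± 0.16 in MDA-MB-231. With the offset GAB1 was not called in either line, and STAM2 was called higher in MDA-MB-231 and not called in HCC1937. PTPN2 was then called lower in HCC1937 at -0.58 and not called in MDA-MB-231 at 0.08. GRB2 was then 0.66 in MDA-MB-231 and 0.49 in HCC1937.

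Of the genes listed as STAT3 targets, FOS rose in HCC1937 and fell in MDA-MB-231, HIF1A fell in both lines and CCND1 rose in both. Of 15 listed, 13 were tested: 3 rose and 5 fell in MDA-MB-231 (median -0.20), and 10 rose and 2 fell in HCC1937 (median 1.03), beside all-gene medians of 0 and -0.16. Of all genes 33% rose and 32.8% fell in MDA-MB-231, and 32.7% rose and 39.1% fell in HCC1937. For the difference between the lines 9 were called higher in HCC1937 and 2 lower, against 11.5% and 20.6% of all genes, with a median of 1.46 beside -0.16 for all genes. FOS, an early response transcription factor, averaged 76.1 CPM with extract and 30.7 CPM without in HCC1937, and 25.9 CPM with extract and 267.8 CPM without in MDA-MB-231. FOS rose by 1.31 ± 0.09 in HCC1937 (adjusted p = 1.456e-07) and fell by 3.37 ± 0.10 in MDA-MB-231 (adjusted p = 4.941e-10). IER3, an early response survival gene, rose by 1.83 ± 0.12 in HCC1937 (adjusted p = 1.001e-07). HIF1A, the hypoxia factor, fell by 2.42 ± 0.09 in HCC1937 and fell by 2.96 ± 0.09 in MDA-MB-231, and the cyclin gene CCND1 rose by 1.37 ± 0.08 in MDA-MB-231. With the offset 2 were called higher and 10 lower in MDA-MB-231 and 8 higher and 2 lower in HCC1937, and for the difference 9 were called higher and 2 lower. FOS was then 0.69 in HCC1937 and -3.93 in MDA-MB-231, HIF1A was -0.66 in HCC1937 and -1.64 in MDA-MB-231, and IER3 was 0.82 in HCC1937 and called lower at -1.06 in MDA-MB-231. Many of these genes are also targets of other factors. FGA had no reads in any library.

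**Figure D4:**
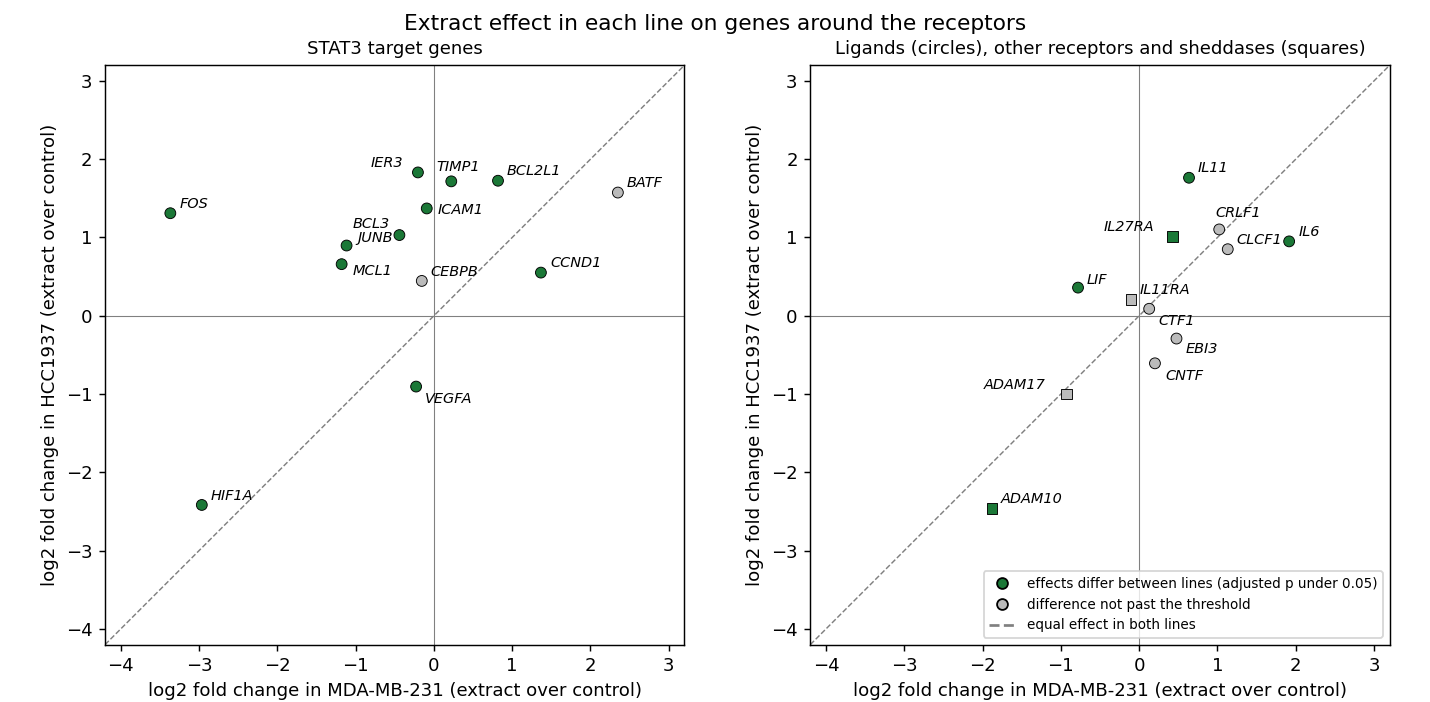
Log2 fold change, extract over control, in HCC1937 against that in MDA-MB-231 for STAT3 targets (left) and for ligands, other receptors and sheddases (right); each point is a tested gene, green where the effects differ between the lines. IL6 lay at 0.95 in HCC1937 and 1.92 in MDA-MB-231, and FOS lay at 1.31 in HCC1937 and -3.37 in MDA-MB-231.

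Of 18 other receptors that signal through JAK kinases 16 were tested, with 6 higher and 6 lower in MDA-MB-231 and 5 higher and 6 lower in HCC1937, against 33% higher and 32.8% lower of all genes in MDA-MB-231 and 32.7% higher and 39.1% lower in HCC1937. The leptin receptor gene LEPR fell by 2.44 ± 0.21 in MDA-MB-231 and by 3.05 ± 0.23 in HCC1937, and the interferon receptor genes IFNAR1 and IFNGR1 fell in HCC1937 by 1.88 ± 0.10 and 1.16 ± 0.09. With the offset 5 were called higher and 3 lower in MDA-MB-231 (65.2% of all genes called). In HCC1937 the offset gave 5 higher and 4 lower (67.6% of all genes called). The LEPR call was then lost in MDA-MB-231 and its HCC1937 value was -0.92. In HCC1937 IFNAR1 was then -0.66 and IFNGR1 was -0.18. IFNAR1 also fell by 0.75 ± 0.10 in MDA-MB-231, a call lost with the offset, and IL7R rose by 1.27 ± 0.16 there. In HCC1937 IL7R fell by 0.72 ± 0.15 (adjusted p = 0.00125), turned to 0.51 and was called higher with the offset, and differed between the lines by -1.99 ± 0.22.

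The pattern of 9 of the genes over the 12 libraries was set against that of every gene averaging 5 CPM or more, as a description in which the points share libraries, lines and the extract contrast. IL6ST was most like ZNF227 (Pearson r = 0.998 of log2 CPM), and LIFR was most like MAP1B (0.995). IL6R was most like NACC1 (0.991), and OSMR was most like TPCN1 (0.978), the lowest value of these 9. SOCS1 was most like SMTN (0.992) and SOCS3 like DNAJB6 (0.998). CISH was most like RCSD1 (0.981), PIAS1 like ABCD3 (0.993) and PIM1 like ATP7B (0.993).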

How the data were processed

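Poly-T captured RNA from 12 libraries was used, and groups were taken from the sample titles, since the cell line field counts upward along the samples. The deposited table holds expected counts, the estimated reads per gene. Per the submitters' processing notes, FastQC 0.12.1, fastp 0.23.4, Salmon 1.10.3, DESeq2 and R 4.4.1 were used with GRCh38. For the index release, the summing to genes and strand use, the setting is not given in the sources used here. Of the values 52.8% were not whole, and all were rounded. Of 19517 genes 1 has no symbol.

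In R 4.3.3, edgeR 4.0.16 kept 14133 genes by filterByExpr. A model of the 4 groups was fitted to all libraries after TMM scaling and tested by the quasi-likelihood F test with Benjamini-Hochberg adjustment at 0.05. TMM sets values relative to other genes, so a shift in all messenger RNA at once is not seen. The SE is the log2 fold change over the root of F. CPM values carry an SD over 3 libraries. Floors of 3 counts cover counting error only. Library totals of 16170342 to 31337259 counts set the precision of low genes.

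Transcript length and GC came from GENCODE annotation on GRCh38 (longest coding transcript) for 99.4% of tested genes, and the offset was a smooth surface per library (mgcv 1.9.3). Other alternatives were size factors of DESeq2 1.42.0, DESeq2 itself, no filter, only the groups compared and each library left out. The offset without E7 was added after seeing the data. The fit was checked on simulated counts with an even spread, few changed genes and no library like E7. That check does not cover an outlying library, changes in most genes or genes with few reads. The 10 genes and the lists were chosen with earlier results of these data known. Named genes are the 10, and of each other list up to 3 with the smallest p per line and those without reads; a few genes that these rules name are not reported here. LIF and STAT3 were added after their values were seen. For likeness the closest gene by Pearson r of log2 CPM (prior count 2) is named. No 2 libraries of a group agreed within counting noise.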

Additional observations from a re-analysis of the deposited data

Results flagged for a closer look

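For 5 genes the effect of the extract, as log2 fold change, differed between the lines by the interaction term of the edgeR model, given as HCC1937 minus MDA-MB-231. The difference was 1.19 for OSMR, 2.77 for SOCS1, 2.02 for SOCS3, 1.42 for CISH and -0.94 for PIAS1. Line, medium and extract concentration cannot be told apart in it.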

How the results depend on the processing

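No paired analysis was possible because the groups share no replicate numbers in the titles. For the log2 fold changes of the 10 genes over 5 comparisons, 827 values under an alternative kept direction and call. With direction kept, 22 gained a call and 17 lost one. The other 23 changed sign, with or without a change of call. Of the counts of called genes, 347 stayed within 1.5 times and 9 did not.

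With the length and GC offset the signs that changed were those of SOCS1 (-0.65) and PIAS1 (0.34) in MDA-MB-231 and LIFR (0.055) in HCC1937, and with the offset and without E7 these were -0.53, 0.28 and 0.060. All genes with a higher effect in HCC1937 than in MDA-MB-231 numbered 1630, against 2605 with the offset and 3780 with the offset and without E7. The 10 genes with a lower effect there numbered 1, against 2 with the offset and without E7. The 10 genes higher in HCC1937 than in MDA-MB-231 with extract numbered 1, against 2 with the offset, with and without E7. The PIM1 difference between the lines was 0.040 with DESeq2 size factors and 0.039 with DESeq2, against -0.08. The cause was not tested.

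Leaving out each library in turn gave 1340 to 3554 genes with a higher and 2344 to 4780 with a lower effect in HCC1937, against 1630 and 2909, both highest without E7. Of the 10 genes it gave 1 to 2 with a lower effect, and 1 to 2 that were higher in HCC1937 than in MDA-MB-231 with extract.
The range of log2 values was -0.030 to 0.17 for SOCS1 and -0.16 to 0.20 for SOCS3 in MDA-MB-231, and -0.36 to 0.62 for SOCS2 in HCC1937. For the difference between the lines it was -0.029 to 0.39 for IL6R, -0.25 to 0.36 for LIFR and -0.30 to 0.10 for PIM1, and for OSMR in HCC1937 against MDA-MB-231 with extract it was -0.23 to 0.24. Depth limits SOCS1, SOCS2, CISH and LIFR in HCC1937. The level per kilobase moved with the transcript length taken in 31 cases and not in 9. PIM1 has only 1 coding transcript, so its values, which are among the 9, could not move.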
